A study of Drosophila melanogaster with 3 samples.

Results

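The chemoreceptor genes of the fruit fly encode the odorant receptors (Or), the gustatory receptors (Gr) and the ionotropic receptors (Ir). They were chosen by gene symbol: a protein-coding gene named Or, Gr or Ir, followed by a number, a letter from a to f and at most 1 further letter, in the Ensembl models of assembly BDGP6, which has the coordinates of dm6. Of 13945 protein-coding genes, 176 matched: 59 Or, 60 Gr and 57 Ir genes. The measured values that chose what is described of each gene were the distances between peak summits and its transcription start sites (TSSs), so occupancy below is a description and carries no test. The pattern left out the protein-coding genes Ir7g, Ir94g and Ir94h because of their last letter, 7 pseudogenes, and the odorant co-receptor gene Orco, which is described apart.

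The chromatin came from whole embryos of both sexes, 0 to 24 hours old, of a transgenic line with CG18599, a predicted homeodomain protein, joined to GFP at its C-terminal end. It was sheared by sonication to fragments of 200 to 800 bp and precipitated with an antibody to GFP in 3 biological replicates, which form 1 group. No control chromatin was analysed here, so there is no background from untagged or input chromatin. All embryonic cell types were mixed, so occupancy in a few cells and its absence could not be told apart. The promoter that drives the tagged protein is not given in the sources used here. Library depth is unknown, because the files hold peaks and not reads.

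Chemoreceptors sit in the membrane of sensory neurons of the antenna, the maxillary palp, the mouthparts, the legs and the larval head organs. An Or protein forms a cation channel with Orco, most Gr proteins act in taste neurons, and Ir proteins derive from ionotropic glutamate receptors and work with broadly expressed co-receptors such as Ir25a. Each neuron usually expresses very few of them, and in the embryo the larval chemosensory neurons form late.

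The DNA under the 5 strongest member summits that lie within 10 kb of the TSS and outside an annotated untranslated region (UTR) is shown first. At each of these places the closest protein-coding TSS is that of a chemoreceptor gene. Each line is the plus strand of dm6 from 50 bp before to 50 bp after the summit, and capitals mark TAAT or its reverse complement ATTA, the core that many homeodomain proteins bind.
Ir94a, chr3R:22108487-22108587: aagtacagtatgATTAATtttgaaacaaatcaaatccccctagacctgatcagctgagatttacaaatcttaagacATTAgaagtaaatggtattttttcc
Gr89a, chr3R:16497582-16497682: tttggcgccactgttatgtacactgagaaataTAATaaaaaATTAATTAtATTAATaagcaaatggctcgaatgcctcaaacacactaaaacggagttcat
Or85d, chr3R:8546079-8546179: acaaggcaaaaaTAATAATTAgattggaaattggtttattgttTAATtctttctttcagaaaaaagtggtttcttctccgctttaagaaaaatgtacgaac
Ir68a, chr3L:11239191-11239291: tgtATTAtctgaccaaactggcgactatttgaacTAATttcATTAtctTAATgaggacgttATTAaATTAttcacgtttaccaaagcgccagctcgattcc
Gr93a, chr3R:21837162-21837262: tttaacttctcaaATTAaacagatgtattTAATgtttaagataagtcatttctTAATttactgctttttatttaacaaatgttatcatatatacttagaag
All 5 hold the core at least 3 times, and those of Gr89a and Or85d hold the longer TAATTA. Their A+T share ran from 64.4% at Ir68a to 80.2% at Gr93a.

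Few chemoreceptor genes were the closest gene to a peak. The reproducible peaks were those that passed the irreproducible discovery rate (IDR) step, and a summit among them was given to the gene with the closest TSS. Genes that start at the same position shared the summit, and a gene given a summit within 10 kb counted as occupied. By this rule 23 of 176 chemoreceptor genes (13.1%) were occupied, against 29.9% of all protein-coding genes. Counting any summit within 10 kb, whichever gene was closest to it, gave 88 members, against 69.6% of all genes. Each replicate was then read from its own strongest entries, as many as the IDR list holds, called its top list here. There 20, 19 and 21 members were occupied in replicates 1, 2 and 3, against 30.1%, 31.1% and 29.5% of all genes. The members' share was 11.4% ± 0.551 (SD, n = 3) and that of all genes 30.2% ± 0.808, and the values did not overlap. Because the same replicates went into the IDR list, they show spread and add no separate evidence.

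Within 1 kb of a TSS the difference in share was larger. Gr21a was the only member occupied at this distance in the IDR list, or 0.568% of members, against 21.7% of all genes. Replicates 1 and 3 also gave Gr21a alone, against 22.3% and 20.3% of all genes, and replicate 2 gave Gr21a and Or88a, against 23.1%. The members' share in the replicates was 0.759% ± 0.330 (SD, n = 3). The IDR peaks supported within 250 bp by the top lists of the other replicates gave 13 members within 10 kb without replicate 1, 15 without replicate 2 and 13 without replicate 3. These lists are shorter, and 24.6%, 24.5% and 25.4% of all genes were occupied in them. Gr21a remained occupied within 1 kb in each.

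**Figure D1:**
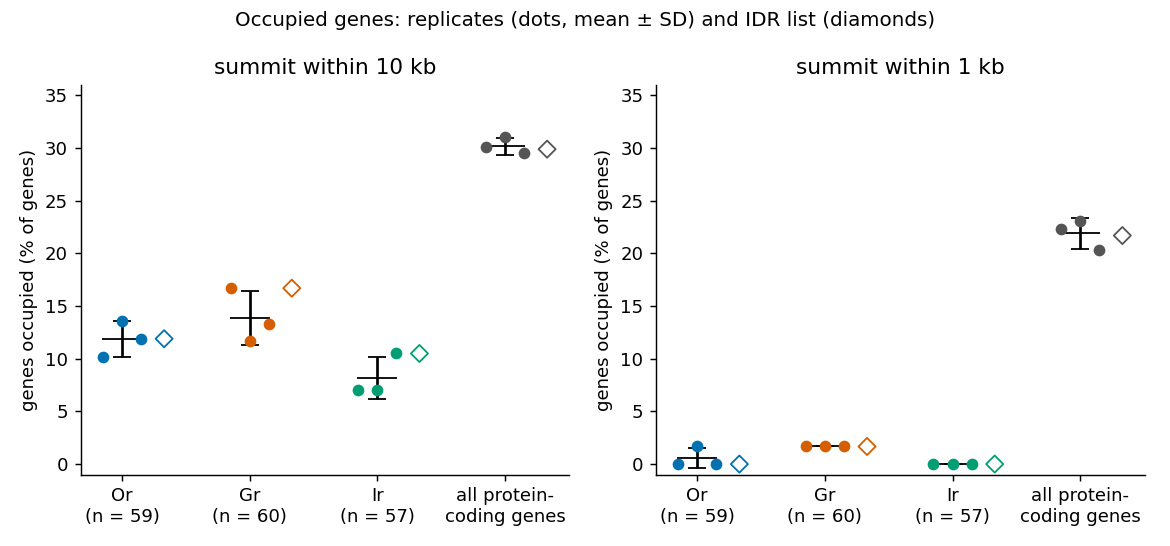
Percent of genes occupied within 10 kb (left) and 1 kb (right) for Or, Gr, Ir and all protein-coding genes. Dots are the top lists of replicates 1 to 3 from left to right, bars are their mean ± SD (n = 3) and diamonds the IDR list. Every dot of the 3 families lies below every dot of all genes.

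The order of the 3 families depended on how occupancy was counted. In the IDR list 7 of 59 Or genes (11.9%), 10 of 60 Gr genes (16.7%) and 6 of 57 Ir genes (10.5%) were occupied within 10 kb. In the replicates the share was 11.9% ± 1.70 for Or, 13.9% ± 2.55 for Gr and 8.18% ± 2.01 for Ir genes (SD, n = 3). Replicate 2 had the most occupied Or genes and the fewest Gr genes of the 3 replicates, so the order of these 2 families changed between replicates. Ir genes lay below both in every replicate, and their 3 values, 7.02% to 10.5%, overlapped those of Or genes, 10.2% to 13.6%, but not those of Gr genes, 11.7% to 16.7%. The order of Or and Ir genes turned with a limit of 5 kb, with 5 Or and 6 Ir genes (8.47% and 10.5%), against 27.8% of all genes. In the stronger 4429 IDR peaks it turned with 1 Or and 2 Ir genes (1.69% and 3.51%), against 19.3%. With 1 TSS per gene 7 genes of each family were occupied (11.9% and 12.3%, against 30.4% of all genes). Without replicate 3 it was 3 of each (5.08% and 5.26%, against 25.4%). The counts were equal in these 2 settings, so only the sizes of the families set the order. In the pooled list Gr genes were lowest, at 26.7%, against 49.4% of all genes.

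The whole deposited lists, which hold 30000 entries each and include background regions, gave a smaller gap. They assigned an entry within 10 kb to 60 members in replicate 1, 61 in replicate 2 and 82 in replicate 3, against 49.8%, 50.9% and 53.3% of all genes. Replicate 3 stood above the others in each family, with 36 Or, 24 Gr and 22 Ir genes, against 24, 19 and 17 in replicate 1 and 28, 17 and 16 in replicate 2. The pooled list gave 66 members, or 37.5%, against 49.4% of all genes. Or genes were not below all genes in every such list: their share was 50.8% in the pooled list and 36 of 59 in replicate 3, above the 49.4% and 53.3% of all genes there. The members' share divided by that of all genes was 0.747 ± 0.111 (SD, n = 3) in the whole lists and 0.376 ± 0.0290 in the top lists.

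Without the nearest-gene rule members also lay farther from summits than all genes, but the families took another order. The median distance from a TSS of a chemoreceptor gene to the nearest IDR summit, whichever gene that summit belonged to, was 9948 bp, against 4740 bp for all genes. It was 13536 bp for Or, 6114 bp for Gr and 9839 bp for Ir genes. The gap between members and other genes differed with the annotation of the start, as given below. Over the replicates the median was 12533 ± 281 bp for Or, 6168 ± 58 bp for Gr, 9439 ± 1587 bp for Ir and 4611 ± 358 bp for all genes (SD, n = 3). Gr genes lay nearest to a summit in every replicate and Or genes farthest, and the 3 replicate values of Or and of Gr genes did not overlap. An IDR summit lay within 10 kb of 20 Or genes (33.9%), 29 Ir genes (50.9%) and 39 Gr genes (65.0%), against 69.6% of all genes. In the top list of replicate 3 the Gr share was 70.0% and that of all genes 69.5%.

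**Figure D2:**
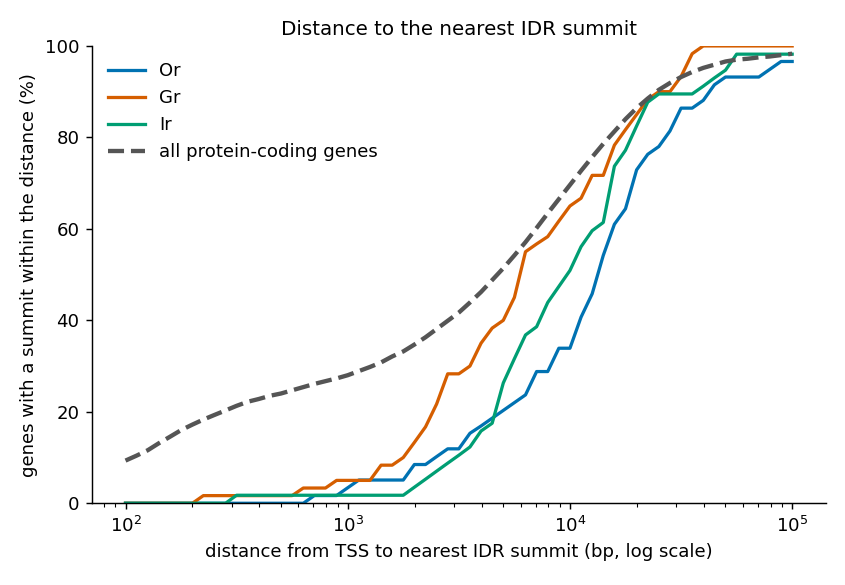
Cumulative percent of genes (vertical axis) with an IDR summit within a given distance of a TSS (horizontal axis, bp, log scale). All genes rise early, with 3901 of 13945 within 1 kb, while 2 Or, 3 Gr and 1 Ir gene have a summit that close.

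Most summits close to a chemoreceptor TSS were closer to another gene. Within 1 kb of a TSS of a member lay a summit for 6 members, and for 5 of them its nearest TSS belonged to a neighbour. The bitter receptor gene Gr32a lay 594 bp from a summit of rank 806 that was 359 bp from the TSS of Idua. Or88a, a receptor for fly pheromones, lay 702 bp from a summit of rank 1040 that was 422 bp from CG12402. In replicate 2 alone the summit there was 506 bp from Or88a and nearest to it. Or9a lay 986 bp from a summit 74 bp from Neb-cGP, and the sugar receptor gene Gr64a lay 837 bp from a summit 79 bp from CG11594. Ir60e had 2 such summits, 289 and 871 bp away, which were 33 and 31 bp from a TSS of CG13585.

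Genes differ in the length of genome that lies nearest to their TSS, from which a summit can be assigned to them. Its median was 4346 bp for members and 4356 bp for all genes. Among the families it was 5106 bp for Or, 3432 bp for Gr and 5648 bp for Ir genes, so Gr genes had less than all genes. With all genes ranked by this length and divided into 10 classes of equal size, the members' share occupied was below that of all genes in each of the 10. In the 5 narrowest classes 5 of 88 members (5.68%) were occupied, against 18.6% of all genes. In the 5 widest 18 of 88 members (20.5%) were, against 41.3%. The part of this length in the counts was not tested further.

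**Figure D3:**
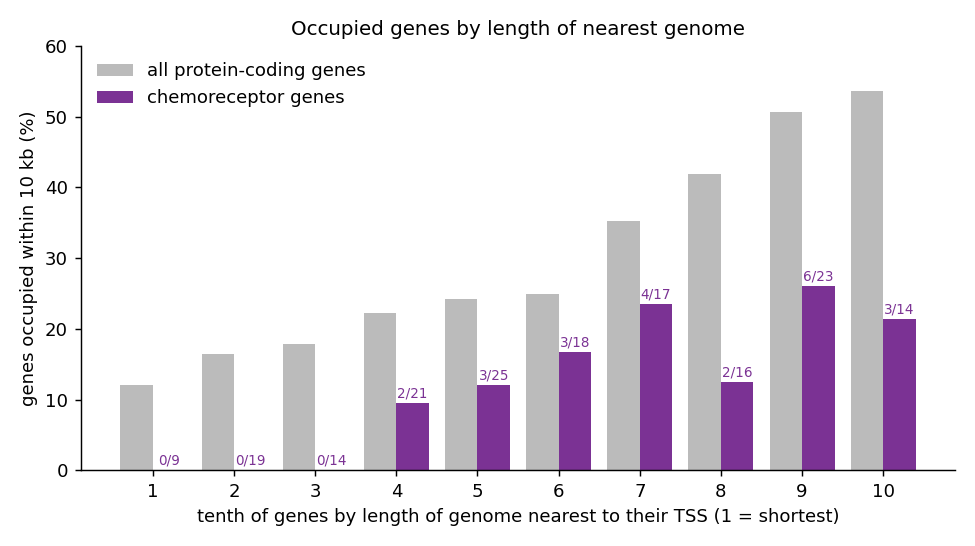
Percent of genes occupied within 10 kb in 10 equal classes ordered by how much genome has their TSS as its closest, for all protein-coding genes (grey) and chemoreceptor genes (purple). Fractions give occupied members over members, from 0 of 9 in the narrowest class to 3 of 14 in the widest, and each purple bar is below the grey one.

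The annotation of their starts differs from that of other genes. A 5′ UTR is annotated for 49 of 176 members (27.8%), against 96.5% of all protein-coding genes, so for 127 members the TSS used here is the start of the coding sequence. Among members with a 5′ UTR 6 of 49 (12.2%) were occupied within 10 kb, against 30.6% of the 13405 other genes with one. Among members without it 17 of 127 (13.4%) were occupied, against 12.4% of the 364 other genes without one. Within 1 kb the shares were 2.04% of members and 22.5% of other genes with a 5′ UTR, and 0 of 127 members and 2.47% of other genes without. The chemoreceptor genes with incomplete models thus had a share near that of other such genes within 10 kb. Their median distance to the nearest IDR summit was 8551 bp, against 8080 bp for the other genes without a 5′ UTR. With a 5′ UTR it was 14202 bp for members and 4565 bp for other genes. The part of annotation in the low counts and in the distances was not tested further.

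Gr21a had the one promoter peak of the group. The gene (FBgn0041250) lies on the plus strand of 2L from 780482 to 782885 and encodes a subunit of the carbon dioxide receptor. Its peak, from 780932 to 781100, held rank 3632 in the IDR list and a signal of 449, the authors' own value. It stood at rank 3946 in replicate 1, 3164 in replicate 2 and 3679 in replicate 3. The ranks are close together and all lie in the top lists. Of its 2 annotated transcripts the longer starts 577 bp before the summit, which falls in its 5′ UTR, and the shorter starts 217 bp after it. Gr63a, which encodes the other subunit, was not occupied, and its nearest IDR summit was 2550 bp away.

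The strongest peak near any member belonged to Ir94a (FBgn0051164), which encodes a divergent ionotropic receptor. It lay on 3R from 22108319 to 22108692, 4890 bp upstream of the TSS and 5123 bp from that of CG13407, between genes. It held rank 695, with rank 781 in replicate 1, 793 in replicate 2 and 571 in replicate 3. This was the only member summit among the strongest 885 of the IDR list.

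Gr89a (FBgn0038440), a receptor gene used in many bitter taste neurons, was next. Its peak on 3R from 16497504 to 16497736 lay 1327 bp downstream of the TSS, past the end of the gene, with the cadherin gene Cad89D starting 2210 bp away. It held rank 1349 in the IDR list and ranks 1204, 1314 and 1696 in replicates 1 to 3. The replicates placed it alike.

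Or85d had a peak on 3R from 8546048 to 8546218, 6479 bp upstream of its TSS and 444 bp from the start of a long noncoding RNA gene, lncRNA:CR45575. It held rank 2846, with ranks 3747, 3739 and 1746 in replicates 1 to 3, so that replicate 3 stood above the other two. Ir68a, needed for the sensing of moist air, had 2 summits, 3023 and 3226 bp upstream, of rank 3127 and 7522. The same entry of each replicate, of rank 2067, 2747 and 5100, lay within 250 bp of both, so they are not 2 separate observations. A noncoding RNA gene, lncRNA:CR44718, started 1621 bp from the stronger of them.

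The Gr93 genes had 6 of the member summits between them. Gr93a, Gr93b, Gr93c and Gr93d lie within 14156 bp on 3R, and 3 of the 4 were occupied. Gr93a, which takes part in caffeine sensing, had a summit 4709 bp downstream of its TSS (rank 3894) and one 3508 bp upstream (rank 6975). The first stood at ranks 4315, 4425 and 3929 in replicates 1 to 3. The second stood at rank 6222 in replicate 1 and 4671 in replicate 3 and fell to 13756 in replicate 2. Gr93d had 3 summits, 2426, 2633 and 3474 bp upstream, at ranks 3920, 6527 and 7330, and the first 2 shared their replicate entries. Gr93b had 1, at rank 6810 and 4052 bp downstream. None of these summits lay within the body of a receptor gene.

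**Figure D4:**
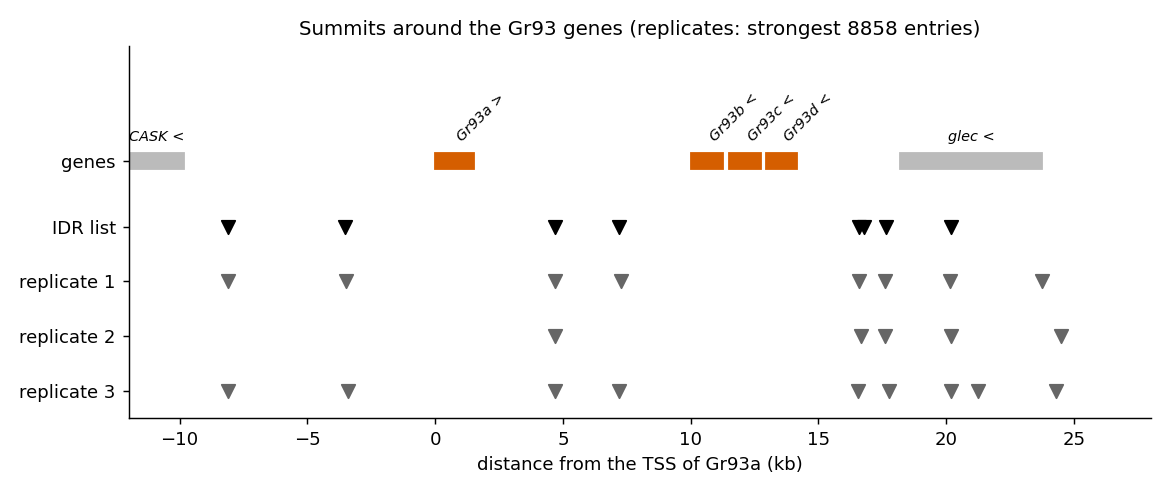
Genes (boxes, with the direction of transcription as an arrowhead) and summits (triangles) by distance from the TSS of Gr93a in kb, for the IDR list and for the top list of each replicate. The summits lie beside the 4 receptor genes (orange) and not on them, and of the 6 assigned to them replicate 2 lacks those at -3508 and 7210 bp.

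The other members were supported less evenly. Or10a, a receptor for methyl salicylate, and Gr10a, made in the same neurons, have 1 start position in the annotation and shared a summit 1994 bp upstream, at rank 5198 and at ranks 7728, 5413 and 5139 in replicates 1 to 3. Gr22d (rank 5268), Or33a (rank 5408) and Ir20a (rank 6366) had 1 summit each within 10 kb, in the top list of every replicate. The larval receptor gene Or1a had a summit in an intron of CG3777, at rank 3880 in replicate 2 and 5214 in replicate 3, while replicate 1 listed no entry within 250 bp. Or45b, also a larval receptor gene, had 3 summits at ranks 6785, 8131 and 8190. The strongest stood at rank 3411 in replicate 2 and 12669 in replicate 1 and was not listed in replicate 3. The summit of Ir48c, in an intron of the fibroblast growth factor gene ths, had rank 5091 in replicate 2 but 17347 and 17308 in replicates 1 and 3. Only the top list of replicate 2 held these last 2 places.

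Ir64a, which acts in acid sensing, had 2 summits, 3175 and 5982 bp upstream, at ranks 6519 and 8745, and no replicate held the second in its top list. Gr68a, linked to male courtship, had its summit in an intron of loaf at rank 8206. Or56a, the receptor gene for geosmin, and Ir7a held ranks 7718 and 7013. Gr22f, Or22b and Gr77a held ranks 8451, 8634 and 8697, near the end of the list.

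**Figure D5:**
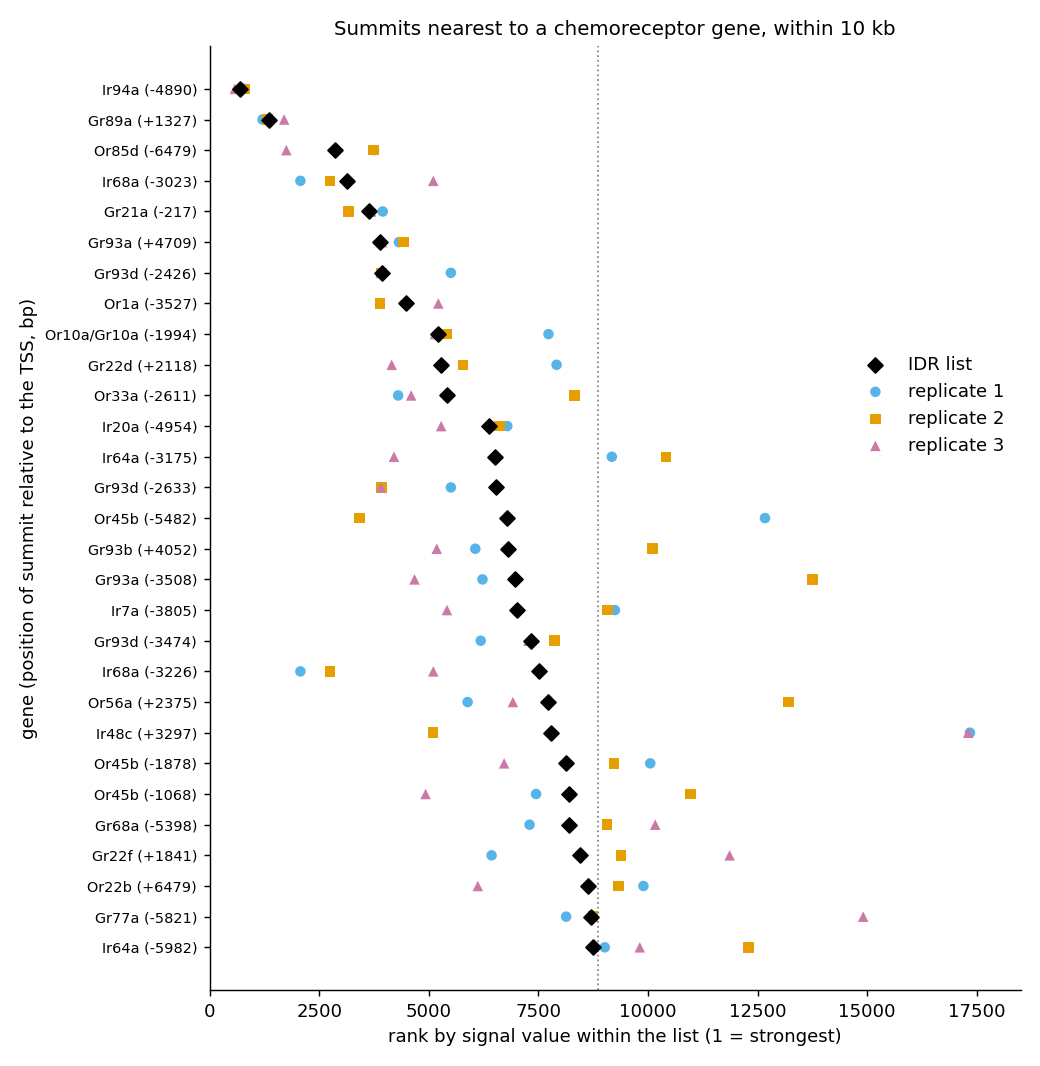
Rank by signal value (horizontal axis, 1 is strongest) of the 29 summits within 10 kb of a chemoreceptor TSS, in the IDR list (diamonds) and at the entry within 250 bp in each replicate's whole list (coloured symbols). Labels give the gene and the summit's position relative to its TSS in bp, and the dotted line marks the length of the IDR list. The upper 7 places stay left of the line in every replicate, while replicates differ widely further down.

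As a group the member summits were distal, weak and mostly upstream. The 29 summits were 0.327% of the IDR list, and 22 of them stood in its weaker 4429 entries, with a median rank of 6785. Their median distance to the TSS was 3297 bp, against 883.0 bp for the 7660 IDR summits within 10 kb of any gene. Of the 29, 25 lay between genes, 3 in introns of other genes and 1 at the promoter of Gr21a. Upstream of the TSS lay 21 (72.4%), against 56.2% of all summits within 10 kb, and the 8 downstream summits all lay past the end of the receptor gene. The top lists of all 3 replicates held 14 of the 29 (48.3%), against 70.1% of all IDR peaks. All IDR peaks include those at promoters, and the comparisons of rank, side and support were not made at like distance from a TSS. Low rank, upstream side and low support can therefore not be told apart from distance here. For the 127 members without an annotated 5′ UTR, upstream means before the coding start. Summits of Ir68a and Gr93d that share replicate entries were counted separately. In the whole lists 27 of the 29 had an entry in all 3 replicates.

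At the 1 kb limit the members' summits nearest to it were that of Gr21a inside, at 217 bp, and one of Or45b outside, at 1068 bp, followed by that of Gr89a at 1327 bp. At 10 kb the last inside were those of Or22b and Or85d, both at 6479 bp, and the first outside those of Or65c at 10833 bp and Or45a at 10910 bp. No member summit therefore lay close to the 10 kb limit on the inner side. In signal the last inside the IDR list were those of Gr77a and Ir64a, at 227 and 226 in the authors' pooled list, and the first outside those of Ir68a and Ir67b, both at 219.

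The role groups are to be read against the 13.1% of all members and 29.9% of all genes occupied within 10 kb. Of 25 odorant receptor genes used by the larva 3 (12.0%) were occupied, Or1a, Or33a and Or45b, and replicates 1 to 3 gave 3, 4 and 3. Of 9 sugar receptor genes, Gr5a, Gr43a, Gr61a and the 6 Gr64 genes, 0 were occupied in the IDR list or in any replicate. Their nearest genome was short, with a median of 1829 bp. Of 5 widely used bitter receptor genes 1 was, Gr89a, in the IDR list and in each replicate, while Gr33a lay 34502 bp from the nearest summit. Of the 4 co-receptor genes Ir8a, Ir25a, Ir76b and Ir93a 0 were occupied in any of these lists. Ir25a lay 2553 bp from a summit nearest to another gene, and Ir8a 14843 bp from any. Of 13 other antennal Ir genes Ir68a and Ir64a (15.4%) were occupied. These lists are small, and no test was made of the difference between them and all genes.

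Occupied members lay both with and without other members nearby. Members with no other member TSS within 20 kb numbered 92, of which 14 (15.2%) were occupied within 10 kb, against 29.9% of all genes. The other 84 fell into 30 neighbour groups, joined by distance alone, some of mixed families such as Gr47a with Ir47a. Of the 84, 9 were occupied (10.7%), 3 of these among the Gr93 genes. In pairs 1 of 30 members (3.33%) was occupied, and in neighbour groups of 3 or more 8 of 54 (14.8%). The median length of genome nearest to the TSS was 5756 bp for the 92 and 3473 bp for the 84. Its part in these shares was not tested. Neighbour groups with no occupied gene included the 6 Gr64 genes, Ir7b to Ir7f, the 4 Ir52 genes and Ir75a to Ir75c. Members within 1 neighbour group share their surroundings and are not independent observations.

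Orco (FBgn0037324), the co-receptor gene that the symbol pattern left out, did have a peak near its start. It lay on 3R from 5413136 to 5413303, 743 bp upstream of the TSS, at rank 2514. It stood at ranks 2725, 2344 and 2998 in replicates 1 to 3, which lie close together. Of the 59 Or genes, 0 had a peak of their own within 1 kb in the IDR list.

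Other genes of the chemosensory system varied from list to list, and are given beside the 29.9% of all genes occupied within 10 kb. Odorant-binding protein genes, whose products carry odorants in the sensillum fluid, had 8 of 51 (15.7%) occupied within 10 kb and 3 within 1 kb, with Obp56h (rank 3310) and Obp83g (rank 4072) strongest. CheA and CheB genes, a family of secreted chemosensory proteins, had 6 of 20, a share near that of all genes, with CheA29a (rank 2029) and CheA84a (rank 2693) strongest. The ppk sodium channel genes had 7 of 29 (24.1%), with ppk27 and ppk8 strongest. Snmp1 and Snmp2, sensory neuron membrane proteins, had 0 of 2. The median length of genome nearest to the TSS was 2260 bp for odorant-binding protein genes, 8879 bp for CheA and CheB and 4288 bp for ppk genes. In the classes of all genes that hold these lengths, 17.9% (1889 to 2499 bp), 41.9% (8175 to 12593 bp) and 24.2% (3322 to 4356 bp) were occupied. The part of this length in the counts was not tested.

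Among related receptors, 4 of 13 ionotropic glutamate receptor genes (30.8%) were occupied, close to the 29.9% of all genes, with KaiR1D (rank 3147) and Nmdar2 (rank 3201) strongest. Nicotinic receptor genes had 2 of 10, nAChRalpha2 and nAChRalpha5, below that share in the IDR list. They were not below it throughout: replicates 1 to 3 gave 5, 2 and 3 of 10, against 30.1%, 31.1% and 29.5% of all genes. Rhodopsin genes had 1 of 7 (14.3%), Rh5 at rank 307, below the 29.9% of all genes. Transcription factor genes with roles in chemosensory neurons had 7 of 15 (46.7%) occupied, above it, led by Xbp1 (rank 912) and sim (rank 1098), and 3 of them within 1 kb. The median length of genome nearest to these factor genes was 11446 bp and that of the glutamate receptor genes 12074 bp, both above the 4346 bp of the chemoreceptor genes. In the class of 8175 to 12593 bp, which holds both, 41.9% of all genes were occupied. For nicotinic receptor genes the median was 19196 bp, in a class with 50.7%, and for rhodopsin genes 5485 bp, in a class with 24.9%. The part of this length in the counts was not tested.

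The sequence under the member summits was compared with that under all IDR summits, as counts in windows of that same width on both strands. TAATTA was present in 7 of 29 member windows (24.1%), against 9.04% of all IDR summits. Among summits over 1 kb and up to 10 kb from a TSS it was present in 7 of 28, against 9.19%. TAAT, which TAATTA contains, was present in 25 of 29 (86.2%), against 71.8%. The A+T share was 64.8% ± 9.05 (SD over 29 windows) at member summits and 63.9% ± 10.2 at all. TATATA was present in 10.3% of member windows and 10.8% of all, GAGAG in 6.90% and 12.0%, and CACACA in 10.3% and 8.18%. TATCGATA and GGTCACAC, the elements of the promoter factors DREF and M1BP, were in 0 of 29, against 0.824% and 0.587%.

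Besides Gr89a and Or85d above and a summit of Or45b, TAATTA was present at these 4 places, shown for its surroundings, with TAAT and ATTA in capitals on the plus strand of dm6.
Ir20a, chrX:21483849-21483949: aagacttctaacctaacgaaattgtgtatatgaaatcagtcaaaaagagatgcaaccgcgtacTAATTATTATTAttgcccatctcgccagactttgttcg
Gr93a, chr3R:21828945-21829045: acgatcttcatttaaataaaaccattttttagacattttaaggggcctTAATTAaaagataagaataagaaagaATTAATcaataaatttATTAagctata
Gr68a, chr3L:11745857-11745957: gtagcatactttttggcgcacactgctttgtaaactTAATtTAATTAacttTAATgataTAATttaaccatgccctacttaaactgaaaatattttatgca
Gr22f, chr2L:1754560-1754660: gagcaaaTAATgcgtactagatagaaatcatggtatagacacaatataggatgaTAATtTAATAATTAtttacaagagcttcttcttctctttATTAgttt
Each holds TAATTA once and TAAT or ATTA in at least 4 places, counted with overlaps.

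The starts of all chemoreceptor genes were read for the same sequences, whether or not a peak lay near. In the window from 250 bp before to 50 bp after the start of the gene model, TAATTA was present at 79 of 176 members (44.9%), against 20.4% of all genes. The share was 58.3% for Gr, 44.1% for Or and 31.6% for Ir genes. Their A+T share, 60.5% ± 5.84 (SD over 176 windows), was close to the 60.9% ± 7.74 of all genes. TATCGATA was present at 1 member (0.568%), against 9.36% of all genes, and GGTCACAC at 0 members, against 7.70%. TAAT was present at 98.3% and 93.3%, TATATA at 26.1% and 23.8%, GAGAG at 20.5% and 29.7%, and CACACA at 12.5% and 19.2%.

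These shares were also read with the annotation of the start in view. Among genes with an annotated 5′ UTR TAATTA was present at 40.8% of members and 19.9% of other genes, and among genes without one at 46.5% and 28.3%. TATCGATA was present at 0 of 49 members and 9.70% of other genes with a 5′ UTR, and at 0.787% and 1.10% without one. GGTCACAC, at 0 members, was present at 7.97% of all genes with a 5′ UTR and 0.549% of other genes without one. Most members have no 5′ UTR, and other such genes also rarely held these elements. The part of annotation in these contrasts was not tested. Within 10 kb, 10 of the 79 members with TAATTA (12.7%) and 13 of the 97 without (13.4%) were occupied. A match is a run of letters and not a bound site.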

How the data were processed

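Chromatin immunoprecipitation and sequencing was done on 3 replicates, per the labels. Per the deposited notes, each replicate's dm6 list holds peaks and background regions made from its reads and 1 further file that the control-normalized tracks also used, the pooled list comes from the reads of all 3, and the IDR list from these. The sources used here do not name the aligner, the peak caller or the IDR threshold. The authors deposited a signal value per peak, of unstated scale, which served only for ranking inside 1 list, and a column taken to be −log10 q-values, which served as an alternative ranking. The dm3 lists were not used.

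Summits (start plus deposited offset, 1-based) were assigned to the nearest TSS of any protein-coding transcript (Ensembl release 115) with Python 3.11.15 and pandas 2.3.3. Positions shared by genes counted for each. Sequence came from the RefSeq genome of the same assembly, release 6. The assignment was tested on simulated data. Members, lists and distances were chosen with earlier results of these data known, so nothing was tested. Named genes are all occupied members, those in replicate lists within 1 kb, those at the limits, role lists, Orco, the 2 strongest of each other list, and hosts of peaks. Neighbours of members and nearest distances of single members were chosen after their values were seen.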

Additional observations from a re-analysis of the deposited data

How the results depend on the processing

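The share of members occupied stayed below that of all genes under every one of the 15 alternatives at each distance, with a ratio between 0.206 and 0.759 at 10 kb and between 0.0263 and 0.259 at 1 kb. This did not hold for each family: Or genes had a ratio of 1.03 in the pooled list at 10 kb. The count of 23 within 10 kb became 7 in the 4429 strongest IDR peaks, ranked by signal or by q-value, 66 in the pooled list and 88 when any summit within the distance counted. It was 13 to 15 when only IDR peaks supported by the top lists of the other replicates were kept, with 1 replicate left out. Of all genes 24.5% to 25.4% were occupied in those lists. The IDR list itself came from all 3 replicates, so these member counts could not exceed 23. Of the 49 members with an annotated 5′ UTR, an alternative chosen after seeing the data, 6 (12.2%) were occupied, against 30.5% of all genes with one. The 127 members without one were not among the alternatives. Of these 17 (13.4%) were occupied within 10 kb, which is not below the 12.4% of the 364 other genes without one. Within 1 kb the shares were 0 of 127 and 2.47%. The 1 gene within 1 kb became 17 in the pooled list, 6 with any summit, 6 at 2 kb and 2 with the wider symbol pattern, which adds Orco. The pooled list is longer and the stronger list shorter, and other causes were not tested. Giving a shared start to 1 gene, also chosen after seeing the data, left 22 within 10 kb (12.5%, against 29.3% of all genes). Counting starts of noncoding genes left 20 (11.4%, against 28.1%), without Or85d, Ir68a and Ir20a. Ir94a, Gr89a, Gr21a, Gr93a and Gr93d were occupied in each of the 14 alternatives that keep all members. No paired analysis was possible because there is 1 group. The lists give no read numbers, so what depth limits cannot be stated.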

Other observations

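Some chemoreceptor genes were nearest to IDR summits beyond 10 kb. There were 14 such summits, and 8 genes were given none within 10 kb. Ir20a, an occupied member, was also nearest to 1 of them, 18266 bp upstream at rank 6246. Or67d, the receptor gene for the male pheromone cis-vaccenyl acetate, was nearest to 3, which lay 16339, 52254 and 64524 bp downstream of its TSS at ranks 5654, 7891 and 6205. Or98a and Or98b were each nearest to 2, the strongest at rank 3385 and 5377, and Or85e to 2, at ranks 3911 and 7733. Or65c, Ir11a, Ir56a and Or45a were each nearest to 1. These summits lay beyond the 10 kb limit and were not counted as occupancy.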
